A study of Homo sapiens with 6 samples.

Results

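The 9 genes described here encode core parts of the Polycomb repressive complexes and an enzyme that removes their mark: EZH1, EZH2, SUZ12, EED, BMI1, CBX2, CBX7, CBX8 and KDM6B. They were taken by symbol from a table of 26372 genes, and each symbol had one entry. Of the 9, 8 had a mean of 1 FPKM or more over all libraries and could be tested among 13434 genes (FPKM counts fragments per length of transcript and per library total). The libraries came from SH-SY5Y, a human neuroblastoma line. In the first group, named TDP-43 knockdown here, cells carried a lentiviral short hairpin RNA (shRNA) against TDP-43, an RNA-binding protein encoded by TARDBP. In the second, named control shRNA, cells carried a control hairpin from the same vector. The U6 promoter of that vector drove the hairpin, and the protocol describes selection of the stable knockdown cells with 2 µg/mL puromycin for 2 weeks and upkeep at 1 µg/mL. Each group had 3 poly(A) libraries, and sample names give a single hairpin per group. No clone is named, and nothing says that the 3 libraries of a group were separate cultures, so the spread behind every p-value is that between libraries and may be technical only.

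Polycomb repressive complex 2 (PRC2) methylates lysine 27 of histone H3. EZH2 or its paralogue EZH1 is the catalytic subunit, and SUZ12 and EED are needed for the complex to be stable and active. Polycomb repressive complex 1 (PRC1) ubiquitinates histone H2A. Its forms are told apart by a PCGF subunit, of which BMI1 (PCGF4) is one, and in its canonical forms a CBX protein such as CBX2, CBX7 or CBX8 binds the methylated lysine. KDM6B, also called JMJD3, is a demethylase of that lysine. EZH2 is typically high in dividing cells, where E2F factors drive it, while EZH1 is the form that persists in cells that have stopped dividing. EZH2 is also known as a repressor of differentiation genes in neuroblastoma.

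TARDBP stood at 21.9, 20.7 and 21.0 FPKM in the TDP-43 knockdown libraries, against 50.3, 50.3 and 47.7 FPKM in the control shRNA libraries, so the labels hold for the targeted gene. FPKM does not give the number of reads. Steps between low values put the relative depth at 70.0%, 52.5% and 94.6% of the deepest library for the knockdown and at 100%, 95.9% and 84.4% for the control. Cell state and cycle markers differed between the groups too. The summed FPKM of 15 mesenchymal markers was 461.9 to 478.3 in the knockdown and 2562 to 2610 in the control, with 0 called higher by limma (0 also at an unadjusted p under 0.05), 14 lower and 1 (SNAI2) not called. That of 13 noradrenergic markers was 1168 to 1307 in the knockdown and 601.6 to 618.0 in the control. Of the 12 that were tested 11 were called higher and 1 (DBH) lower, against 5 higher and 5 lower with columns at equal sums and 0 lower with quantile normalization. TH, the marker that was not tested, was listed at 0 in all 6 libraries. The 6 Schwann and glial markers summed to 7.58 to 9.14 FPKM in the knockdown and 2.72 to 2.85 in the control, and both of the 2 that were tested were called higher. Over all genes tested, limma called 30.5% higher and 35.9% lower. Whether these differences have a part in the results below was not tested. In bulk RNA, fewer cells of a type and less RNA per cell cannot be told apart.

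Of the 8 tested genes 4 passed limma with a Benjamini-Hochberg adjusted p under 0.05, adjusted over all 13434 genes. On the deposited scale KDM6B, CBX2 and EZH1 were higher in the knockdown (negative when columns are brought to equal sums) and EZH2 was lower, while SUZ12, EED, BMI1 and CBX8 did not pass. The 4 called genes are 50.0% of those tested, against 66.3% of all genes tested. Higher calls were 3 of 8, against 30.5% of all genes, and lower calls 1 of 8, against 35.9%. The knockdown and control values did not overlap for 4 of the 8 genes, against 70.8% of all genes. With so few genes these shares are descriptions. The median log2 fold change was 0.07 over the 8 genes and -0.02 over all genes tested. Fold changes are knockdown over control on the log2(FPKM + 1) scale, which understates the change of low genes.

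The catalytic subunits of PRC2 moved in opposite directions on the deposited scale. EZH2 (chromosome 7, 148807383 to 148884321, minus strand, GRCh38) fell by 0.35 on the log2 scale, and EZH1 (chromosome 17, 42700275 to 42745049, minus strand) was higher by 0.46, a sign that turned to -0.32 with columns rescaled so that their sums are equal. The start regions of both genes, and that of SUZ12, which did not pass the test, are shown because each holds a match to E2F-type letters. Whether these letters bear on the measured changes was not tested. The regions are 300-base windows from RefSeq on GRCh38.p14 around the annotated start, 5′ to 3′ on the strand of the gene. Capitals mark the match. EZH2 is at chr7:148884242-148884541 (minus strand), EZH1 at chr17:42744991-42745290 (minus strand) and SUZ12 at chr17:31936757-31937056 (plus strand).
EZH2: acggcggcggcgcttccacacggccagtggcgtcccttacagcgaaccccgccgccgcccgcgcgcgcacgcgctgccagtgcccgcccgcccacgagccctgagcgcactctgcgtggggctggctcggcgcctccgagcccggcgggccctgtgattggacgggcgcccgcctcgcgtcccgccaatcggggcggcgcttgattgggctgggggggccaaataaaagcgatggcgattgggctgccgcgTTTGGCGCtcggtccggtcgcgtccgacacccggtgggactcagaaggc
EZH1: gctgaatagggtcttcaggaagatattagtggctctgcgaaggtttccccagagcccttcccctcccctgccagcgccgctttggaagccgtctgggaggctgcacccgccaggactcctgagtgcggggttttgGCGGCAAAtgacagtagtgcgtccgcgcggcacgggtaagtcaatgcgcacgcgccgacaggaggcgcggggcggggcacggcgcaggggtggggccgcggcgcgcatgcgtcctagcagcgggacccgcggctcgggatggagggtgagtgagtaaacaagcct
SUZ12: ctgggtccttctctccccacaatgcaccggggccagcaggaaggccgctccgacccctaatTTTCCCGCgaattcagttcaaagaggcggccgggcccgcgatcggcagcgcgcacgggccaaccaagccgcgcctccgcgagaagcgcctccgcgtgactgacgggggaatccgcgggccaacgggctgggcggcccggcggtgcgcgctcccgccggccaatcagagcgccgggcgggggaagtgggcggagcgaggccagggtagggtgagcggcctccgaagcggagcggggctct

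The letters searched on both strands were TTTCCCGC, TTTCGCGC, TTTGCCGC and TTTGGCGC. RefSeq gave 10 windows for 7 of the 9 genes, some with more than 1 start, and no window for CBX2 or CBX8. Of the 10 windows 3 held a match, against 3.31% of 35116 windows of the same length. Those 35116 windows were not matched to the 10 for GC content, so the shares are descriptions. The match lay at bases 252 to 259 of the EZH2 window and at bases 62 to 69 of the SUZ12 window, on the strand of the gene. In the EZH1 window it lay at bases 136 to 143 and on the other strand, where it reads TTTGCCGC. A second annotated start of EZH2 had no match. The GC box letters GGGCGG, the core that Sp1-type factors bind, were in 8 of the 10 windows, against 45.0% of all windows. The 3 windows shown held 4, 1 and 3 GC boxes for EZH2, EZH1 and SUZ12, and none of these overlapped the capitals. Their GC contents were 74.7%, 67.0% and 73.0%, against a median of 58.7% over all windows, and they held 46, 30 and 40 CpG, against a median of 14. These matches are letters in a window and do not show binding.

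EZH2 had 32.6, 32.0 and 29.8 FPKM in the knockdown libraries, against 40.4, 40.2 and 40.3 FPKM in the control libraries. Every knockdown library lay below every control library, and the control values spanned only 0.483% of their mean. On average EZH2 stood at 31.5 ± 1.45 FPKM in the knockdown and 40.3 ± 0.0982 FPKM in the control (mean ± SD, n = 3 each), a ratio of 0.781. The log2 fold change was -0.35 (SE 0.046, 95% interval -0.45 to -0.24, limma adjusted p = 1.81e-04). It was -0.11 with quantile normalization, where the call was lost (limma adjusted p = 0.0792), and the adjusted p ranged from 3.63e-08 to 0.0792 over 18 alternative settings. Among all tested genes 45.6% had a larger absolute change.

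EZH1 had 7.16, 8.39 and 7.32 FPKM in the knockdown libraries, against 5.06, 5.28 and 5.38 FPKM in the control libraries. The groups did not overlap, and knockdown library 2, the shallowest of the 6, held the highest value. On average EZH1 stood at 7.62 ± 0.664 FPKM in the knockdown and 5.24 ± 0.163 FPKM in the control (mean ± SD, n = 3 each), a ratio of 1.46. EZH1 thus had a log2 fold change of 0.46 (SE 0.072, 95% interval 0.30 to 0.63, limma adjusted p = 5.01e-04).

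Within a library the ratio of EZH1 to EZH2 is the same whatever constant multiplies the column, though not under quantile normalization. It was 0.220, 0.262 and 0.245 in the knockdown libraries, against 0.125, 0.131 and 0.133 in the control libraries. The groups lay apart and the geometric mean was 1.86-fold higher in the knockdown. The p of an exact permutation test, two-sided, was 0.1, the lowest possible with 3 libraries a group, and 0.233 after adjustment over the 7 ratios computed. EZH1 thus made up 18.0%, 20.8% and 19.7% of the summed EZH1 and EZH2 FPKM in the knockdown, against 11.1%, 11.6% and 11.8% in the control. The sum itself was 39.8, 40.4 and 37.2 FPKM in the knockdown and 45.5, 45.5 and 45.7 FPKM in the control. EZH2 remained the more abundant of the pair per transcript length in every library.

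The scaffold subunits of PRC2 did not pass the test. SUZ12 (chromosome 17, 31937018 to 32001045, plus strand) had 21.7, 17.5 and 21.9 FPKM in the knockdown libraries, against 21.4, 21.1 and 19.7 FPKM in the control libraries. The groups overlapped, and knockdown library 2 held the lowest of the 6 values. The log2 fold change was -0.03 (95% interval -0.22 to 0.16, limma adjusted p = 0.763), and it was 0.07 without knockdown library 2. SUZ12P1, a partial copy of SUZ12 on the same chromosome, had 12.0, 12.5 and 12.9 FPKM in the knockdown libraries, against 7.51, 4.61 and 7.78 FPKM in the control libraries. The copy was called higher (log2 fold change 0.85, limma adjusted p = 0.00123), and stood at 0.04, not called, with columns at equal sums. How reads shared by the gene and its copy were divided is not known. The sum of both, formed after the values were seen, was 33.7, 30.1 and 34.8 FPKM in the knockdown and 28.9, 25.7 and 27.5 FPKM in the control, and its groups did not overlap.

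EED (chromosome 11, 86244544 to 86278813, plus strand), the subunit that binds the methylated lysine and stimulates the enzyme, had 8.89, 9.47 and 8.65 FPKM in the knockdown libraries, against 10.9, 11.8 and 9.19 FPKM in the control libraries. The groups overlapped because control library 3 lay below knockdown library 2. The log2 fold change was -0.21 (SE 0.087, 95% interval -0.41 to -0.011, limma adjusted p = 0.0599). Without control library 3 it was -0.30 and passed (limma adjusted p = 0.00930), and over 18 alternatives the adjusted p ranged from 1.34e-06 to 0.275. The ratio of EZH2 to EED was 3.67, 3.38 and 3.45 in the knockdown and 3.72, 3.42 and 4.39 in the control, with overlap (exact two-sided permutation p = 0.3, adjusted 0.35). The ratio of EZH2 to SUZ12 was 1.503, 1.82 and 1.36 in the knockdown, against 1.89, 1.91 and 2.04 in the control. Those groups lay apart (exact two-sided permutation p = 0.1, adjusted 0.233). The 4 core PRC2 genes together summed to 70.3, 67.4 and 67.7 FPKM in the knockdown, against 77.8, 78.3 and 74.6 FPKM in the control.

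**Figure D1:**
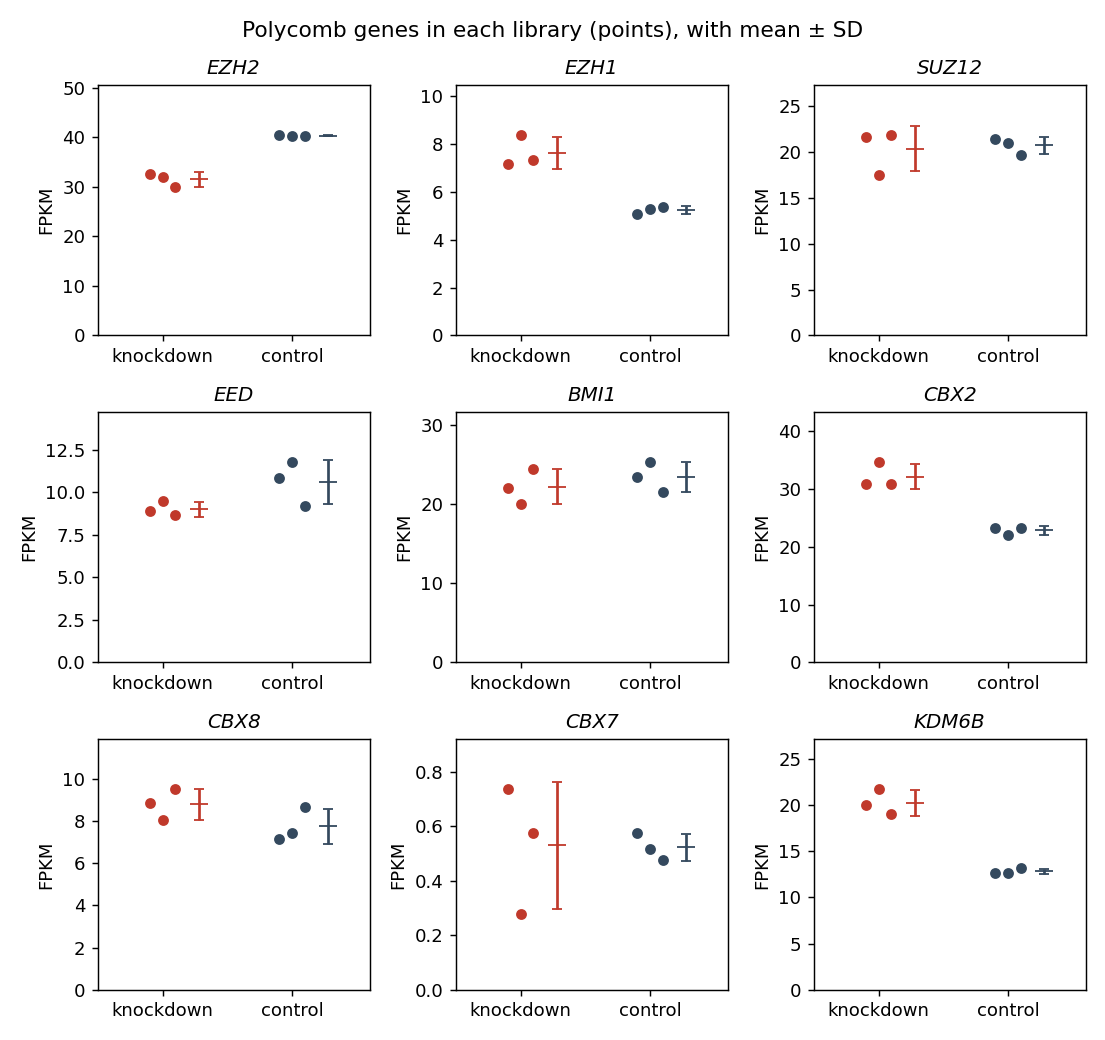
FPKM of the 9 Polycomb genes in each library (points; vertical axis from 0 in every panel, with its own scale), TDP-43 knockdown left and control shRNA right, with bars for mean ± SD (n = 3 each). EZH2 lay lower, and EZH1, CBX2 and KDM6B lay higher, in every knockdown library than in every control library on this deposited scale, the other 5 genes overlapped, and with columns at equal sums the log2 fold changes of EZH1, CBX2 and KDM6B were negative.

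Among the PRC1 genes the reader subunit CBX2 (chromosome 17, 79778132 to 79787983, plus strand) was the one that passed, higher in the knockdown on the deposited scale and at -0.40 with columns at equal sums. It had 30.7, 34.6 and 30.9 FPKM in the knockdown libraries, against 23.3, 21.9 and 23.2 FPKM in the control libraries. Knockdown library 2 was the highest and the groups did not overlap. On average CBX2 stood at 32.1 ± 2.17 FPKM in the knockdown and 22.8 ± 0.764 FPKM in the control (mean ± SD, n = 3 each), a ratio of 1.41. This is a log2 fold change of 0.47 (SE 0.058, 95% interval 0.34 to 0.60, limma adjusted p = 1.10e-04).

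CBX8 (chromosome 17, 79792132 to 79801683, minus strand), a reader whose gene lies next to CBX2 in convergent orientation, had 8.87, 8.03 and 9.51 FPKM in the knockdown libraries, against 7.14, 7.44 and 8.68 FPKM in the control libraries. The groups overlapped, with control library 3 above knockdown library 2. The log2 fold change was 0.16 (95% interval -0.03 to 0.36, limma adjusted p = 0.122), and -0.64 with columns at equal sums. It passed at 0.22 without knockdown library 2 (limma adjusted p = 0.0467) and at 0.24 without control library 3 (limma adjusted p = 0.0410), within a range of 1.28e-05 to 0.34 over 18 alternatives. The ratio of CBX8 to CBX2 was 0.289, 0.232 and 0.308 in the knockdown and 0.307, 0.339 and 0.374 in the control, with overlap (exact two-sided permutation p = 0.2, adjusted 0.35).

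CBX7 (chromosome 22, 39120167 to 39152674, minus strand), a reader known for silencing the INK4 locus, was the lowest of the 9 genes. It had 0.736, 0.276 and 0.577 FPKM in the knockdown libraries, against 0.576, 0.517 and 0.476 FPKM in the control libraries. It fell under the minimum mean of 1 FPKM and was not tested. Its values overlapped and spanned 86.8% of their mean in the knockdown, with the shallowest library lowest, and 19.2% in the control. Its ratio to CBX2 overlapped too (exact two-sided permutation p = 0.3, adjusted 0.35).

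BMI1 (chromosome 10, 22321211 to 22331484, plus strand), the PCGF subunit of a canonical PRC1, had 22.1, 20.0 and 24.4 FPKM in the knockdown libraries, against 23.4, 25.3 and 21.5 FPKM in the control libraries. The groups overlapped, at a log2 fold change of -0.08 (95% interval -0.26 to 0.11, limma adjusted p = 0.437). COMMD3-BMI1, a read-through transcript that overlaps BMI1 on the same strand, was listed at 1.82, 0.000593 and 1.32 FPKM in the knockdown and at 1.73, 0.0232 and 2.22 FPKM in the control. Summed with it, BMI1 stood at 23.9, 20.0 and 25.7 FPKM in the knockdown and at 25.2, 25.3 and 23.7 FPKM in the control, still with overlap. PCGF2, its closest paralogue, stood at 26.3 ± 0.630 FPKM in the knockdown and 26.7 ± 0.704 FPKM in the control (SD, n = 3 each; limma adjusted p = 0.694). The ratio of BMI1 to PCGF2 was 0.842 ± 0.0865 in the knockdown and 0.876 ± 0.0882 in the control (SD, n = 3 each; exact two-sided permutation p = 0.8, adjusted 0.8).

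KDM6B (chromosome 17, 7839904 to 7854796, plus strand), the demethylase, had the largest change of the 8 tested genes on the deposited scale. It had 19.96, 21.7 and 18.98 FPKM in the knockdown libraries, against 12.6, 12.6 and 13.2 FPKM in the control libraries. The groups did not overlap, and the lowest knockdown value lay well above the highest control value. On average KDM6B stood at 20.2 ± 1.38 FPKM in the knockdown and 12.8 ± 0.315 FPKM in the control (mean ± SD, n = 3 each), a ratio of 1.58. Its log2 fold change was 0.62 (SE 0.059, 95% interval 0.48 to 0.75, limma adjusted p = 2.45e-05), and -0.23 with columns at equal sums. Even so 23.7% of all tested genes had a larger absolute change on the deposited scale.

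KDM6A, the X-linked paralogue of KDM6B with the same activity, did not pass. It had 9.79, 9.72 and 9.50 FPKM in the knockdown libraries, against 10.3, 9.27 and 9.64 FPKM in the control libraries (log2 fold change -0.0068, limma adjusted p = 0.924). The ratio of KDM6B to KDM6A was 2.04, 2.23 and 2.00 in the knockdown, against 1.23, 1.36 and 1.37 in the control. The groups lay apart, 1.58-fold higher in the knockdown (exact two-sided permutation p = 0.1, adjusted 0.233). KDM6B made up 67.1%, 69.1% and 66.6% of the pair in the knockdown, against 55.2%, 57.6% and 57.8% in the control.

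The makeup of the paralogue families was then set side by side as shares of summed FPKM, in families chosen after the values were seen and described with no test, as were the sums given above for the EZH pair and the PRC2 core. CBX2 made up 65.4%, 69.3% and 65.3% of the sum of CBX2, CBX6, CBX7 and CBX8 in the knockdown, against 62.3%, 59.9% and 60.2% in the control. CBX6, another reader of canonical PRC1, held 14.1%, 14.01% and 13.4% in the knockdown and 17.02%, 18.3% and 16.1% in the control, while its own level overlapped, at 6.65 ± 0.331 FPKM in the knockdown and 6.42 ± 0.253 FPKM in the control (SD, n = 3 each), and the sum of the 4 genes was larger in the knockdown, at 46.99, 49.9 and 47.3 FPKM, against 37.3, 36.6 and 38.6 FPKM in the control. CBX8 held 18.9%, 16.1% and 20.1% in the knockdown and 19.1%, 20.3% and 22.5% in the control, with overlap. In the PCGF family BMI1 held 22.7%, 20.1% and 23.5% in the knockdown and 22.6%, 24.8% and 20.8% in the control, also with overlap. PCGF5 held 5.14%, 5.43% and 5.31% in the knockdown, against 11.6%, 12.1% and 12.3% in the control. The shares of PCGF1 and PCGF3 lay above the control in every knockdown library, and that of PCGF6 below it.

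**Figure D2:**
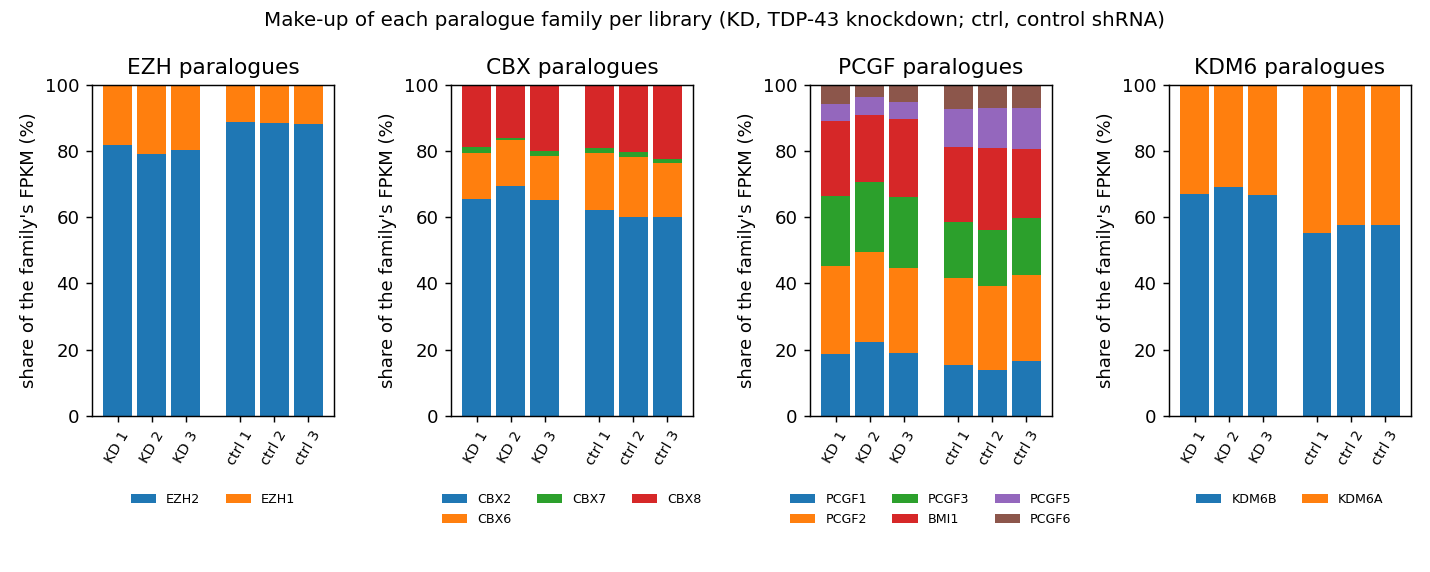
Share of summed FPKM (percent, vertical axis) held by each listed gene of the EZH, CBX, PCGF and KDM6 families in each library, 3 TDP-43 knockdown libraries left and 3 control shRNA libraries right. The shares of EZH1, CBX2 and KDM6B are larger in every knockdown library than in every control library, while the share of BMI1 overlaps.

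Ordered by level per transcript length, EZH2 led the 9 genes in the control, whose range lay above that of BMI1. BMI1 and CBX2 overlapped, and SUZ12, KDM6B, EED, CBX8, EZH1 and CBX7 followed with no overlap between neighbours. In the knockdown CBX2, at a mean of 32.1 FPKM, and EZH2, at 31.5 FPKM, overlapped at the top. BMI1, SUZ12 and KDM6B followed with overlapping ranges, from 17.5 FPKM in the lowest SUZ12 library to 24.4 FPKM in the highest BMI1 library. EED, CBX8 and EZH1 overlapped next, and CBX7 was again the lowest. The order is a description, with no test.

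The wider Polycomb machinery was described with lists of 45 other genes, all of which were tested. Of these 18 were higher, 10 lower and 17 not called, which is 62.2% called against 66.3% of all genes. Their median log2 fold change was 0.04, against -0.02 over all genes. With columns at equal sums all 45 were called lower, so each higher call named below turned negative there.

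Among 9 other PRC2 subunits 3 were higher, 4 lower and 2 not called, with a median of -0.14. That is 77.8% called, against 66.3% of all genes tested. PHF19, a Polycomb-like subunit that recruits PRC2 and binds methylated lysine 36 of H3, had the largest fall of the 9. It had 10.9, 9.19 and 7.81 FPKM in the knockdown, against 16.6, 16.4 and 15.1 FPKM in the control (log2 fold change -0.73, limma adjusted p = 2.70e-04). RBBP7, a histone-binding subunit, had 42.5, 43.2 and 46.5 FPKM in the knockdown, against 71.2, 73.6 and 73.3 FPKM in the control (log2 fold change -0.71, limma adjusted p = 1.76e-06). RBBP4, its paralogue, was called in the other direction, at 36.7 ± 0.942 FPKM in the knockdown and 29.8 ± 0.612 FPKM in the control (SD, n = 3 each; log2 fold change 0.29, limma adjusted p = 3.27e-04; -0.58 with columns at equal sums). Of the accessory subunits that mark one form of PRC2, AEBP2 was lower (log2 fold change -0.50, limma adjusted p = 0.00375) and JARID2 higher (0.43, limma adjusted p = 2.22e-04; -0.38 with columns at equal sums). EPOP, a subunit of the other form listed under its older symbol, was higher (0.46, limma adjusted p = 6.93e-04; -0.34 with columns at equal sums), and PHF1 of that form was lower (-0.46, limma adjusted p = 1.10e-04). MTF2 and LCOR were not called, at 0.01 and -0.14. RBBP4, JARID2, EPOP, MTF2 and LCOR were named after their values were seen.

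Among 22 other PRC1 subunits 6 were higher, 4 lower and 12 not called, with a median of -0.02. That is 45.5% called, against 66.3% of all genes tested. The ubiquitin ligases RING1 and RNF2, shared by every form of PRC1, were among those not called (log2 fold changes -0.02 and -0.13, limma adjusted p = 0.784 and 0.374). PCGF5, of a variant PRC1, had the largest change, with 4.99, 5.40 and 5.52 FPKM in the knockdown, against 12.04, 12.4 and 12.6 FPKM in the control (log2 fold change -1.08, limma adjusted p = 6.83e-07). PCGF3, its closest paralogue, was called in the other direction (0.26, limma adjusted p = 0.00178; -0.60 with columns at equal sums). PCGF6, of another variant, was lower (-0.50, limma adjusted p = 0.00562), as was SCML1 (-0.47, limma adjusted p = 0.0189). PHC1, a polyhomeotic subunit of canonical PRC1, had 21.2, 22.6 and 21.0 FPKM in the knockdown, against 15.6, 14.2 and 15.9 FPKM in the control (0.48, limma adjusted p = 1.10e-04; -0.38 with columns at equal sums). Its paralogue PHC2 was lower (-0.35, limma adjusted p = 3.71e-04). PCGF1, BCOR and KDM2B, known parts of a single variant PRC1, were each higher on the deposited scale by 0.34, 0.44 and 0.24 (limma adjusted p = 0.00836, 2.48e-05 and 0.00733) and negative with columns at equal sums, while BCORL1 of the same variant did not pass (0.11, limma adjusted p = 0.230). RYBP, YAF2 and USP7 of the same list did not pass either (-0.08, 0.13 and -0.06, limma adjusted p = 0.423, 0.319 and 0.282). RING1, RNF2, PCGF1, PCGF3, PHC2, BCOR, KDM2B, BCORL1, RYBP, YAF2 and USP7 were named after their values were seen.

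Among 14 enzymes and cofactors that erase or oppose Polycomb marks 9 were higher, 2 lower and 3 not called, with a median of 0.19. That is 78.6% called, against 66.3% of all genes tested (30.5% higher and 35.9% lower). KMT2C, a methyltransferase of lysine 4 of H3, had 34.2, 33.95 and 33.7 FPKM in the knockdown, against 24.4, 25.1 and 23.9 FPKM in the control (log2 fold change 0.46, limma adjusted p = 1.89e-05; -0.42 with columns at equal sums). KMT2A, a related methyltransferase, and CREBBP, which acetylates the lysine that PRC2 methylates, were each higher by 0.33 on the deposited scale (limma adjusted p = 2.12e-04 and 0.00157), and stood at -0.54 and -0.52 with columns at equal sums. USP16, which removes ubiquitin from H2A, was lower (-0.36, limma adjusted p = 0.00640).

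**Figure D3:**
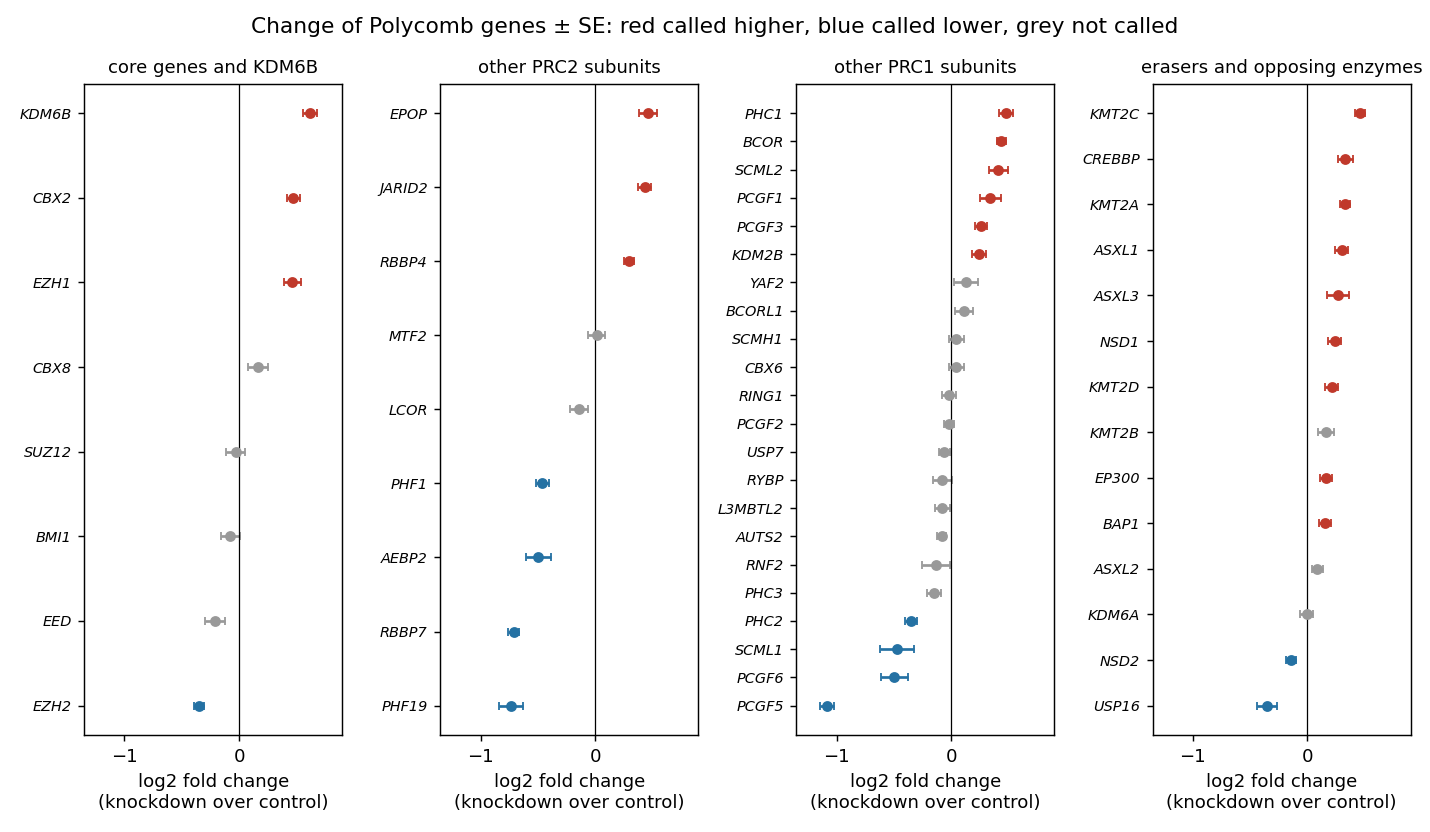
Log2 fold change of FPKM + 1, TDP-43 knockdown over control shRNA, with its standard error, for the 8 tested Polycomb genes and 45 other Polycomb genes in 3 lists (red, called higher; blue, called lower; grey, not called). PCGF5 (-1.08) and PHF19 (-0.73) lie farthest to the left and KDM6B (0.62) farthest to the right on this deposited scale, while with columns at equal sums every gene shown was called lower.

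EZH2 is known to follow the cell cycle, so cycle genes were set beside it. Of 12 genes of the G2 and M phases 0 were higher by limma (0 also at an unadjusted p under 0.05), 11 lower and 1 (MKI67, at -0.07) not called, with a median of -0.77. That is 91.7% called, against 66.3% of all genes tested (30.5% higher and 35.9% lower). CDC20 (-1.28), CDK1 (-1.08), AURKA (-1.06) and CCNB1 (-1.005), which drive mitosis, had the largest changes. The summed FPKM of the 12 was 336.3 to 359.9 in the knockdown and 526.1 to 536.1 in the control. Of 23 E2F and S phase genes 7 were higher, 8 lower and 8 not called, with a median of -0.02. That is 65.2% called, near the share of 66.3% over all genes tested. TK1 (-1.16), RRM2 (-0.86) and CDC6 (-0.51), which serve nucleotide supply and the licensing of origins, were lower, and E2F2 was higher (0.55, or -0.19 with columns at equal sums). The 23 genes summed to 596.3 to 620.9 FPKM in the knockdown and 653.1 to 660.5 FPKM in the control. With quantile normalization 2 of the G2 and M genes were higher and 9 lower, and 11 of the E2F and S phase genes were higher and 6 lower. With columns at equal sums 0 of the E2F and S phase genes were higher by limma (0 also at an unadjusted p under 0.05) and 22 lower. Whether the level of EZH2 follows the cycle genes here was not tested.

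Equal column sums shifted the median over all genes by -0.80, and all 8 tested genes were called lower. Relative to that median, EZH1 stood at 0.50, CBX2 at 0.42, KDM6B at 0.59 and EZH2 at -0.41. With sums taken without 6 small RNAs the shift was -0.03. Their share of a column was 79.7% to 82.0% in the knockdown and 63.8% to 64.9% in the control, without overlap. Quantile normalization shifted the median by 0.11, and relative to it EZH1 stood at 0.44, CBX2 at 0.57, KDM6B at 0.65 and EZH2 at -0.20. Of all called genes 45.9% were higher on the deposited scale, 4.27% with columns at equal sums and 58.7% with quantile normalization.

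**Figure D4:**
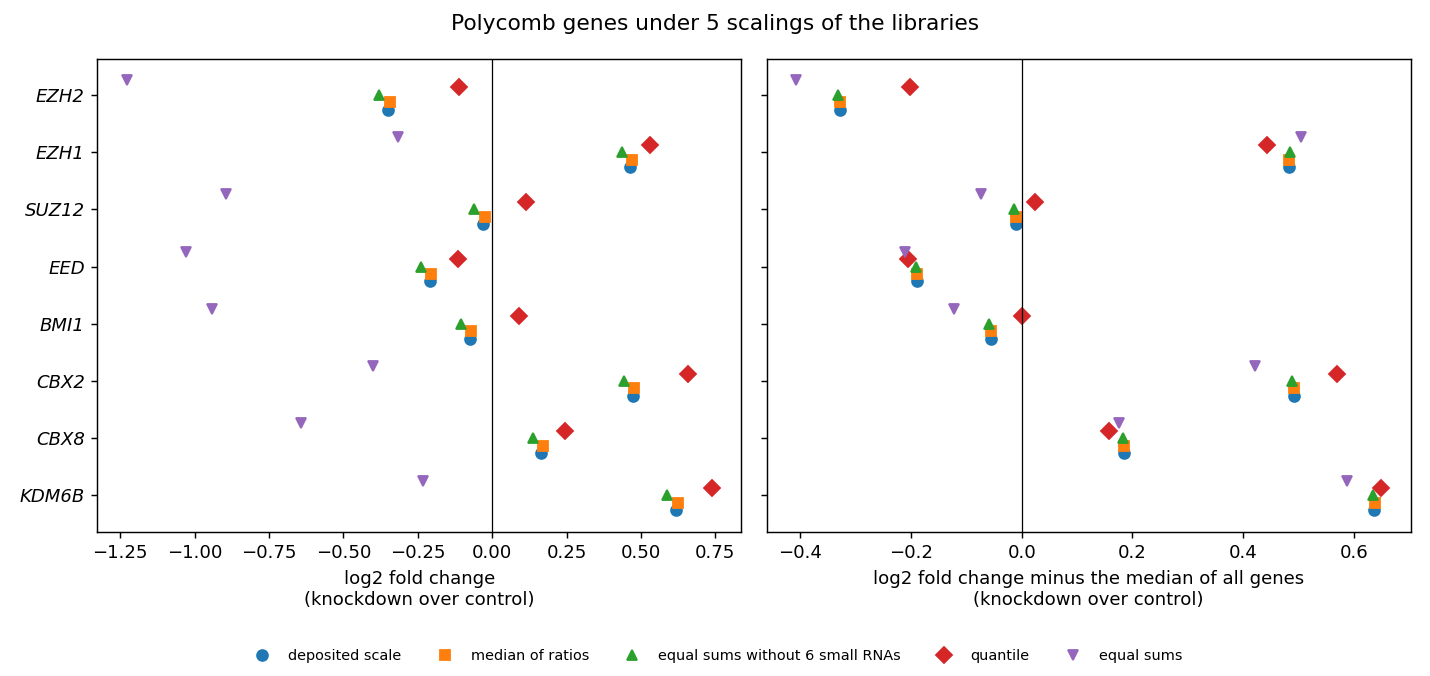
Log2 fold change, TDP-43 knockdown over control shRNA, of the 8 tested Polycomb genes under the deposited scale and 4 other scalings, as fitted (left) and after subtraction of the median over all genes under each scaling (right). As fitted, all 8 are negative with columns at equal sums, while relative to the median EZH1, CBX2 and KDM6B lie above 0 and EZH2 below 0 under each of the 5 scalings.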

How the data were processed

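Poly(A) RNA of 6 SH-SY5Y libraries was sequenced after a directional kit, per the labels' protocols, and the authors deposited a single table with the FPKM of each gene by library. The submitters' processing notes name Cuffdiff 2.2.1, TopHat2 2.1.0 and SAMtools, with hg38 as build. Not given in the sources used here are the annotation and the strand setting, so reads of overlapping genes and near-identical copies cannot be assigned. Groups and numbers came from sample titles.

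From the deposited FPKM, log2(FPKM + 1) was compared, for genes whose mean reached 1 FPKM, by limma 3.58.1 (R 4.3.3, intensity trend, two-sided moderated tests), with Benjamini-Hochberg adjustment over 13434 genes and calls at an adjusted p under 0.05. The procedure was tested on simulated data. Single ratios were tested by exact two-sided permutation over libraries (Python 3.11.15, numpy 2.4.6, pandas 2.3.3, scipy 1.17.1), and plots used matplotlib 3.10.9. FPKM gives no read numbers, so no counting interval is given, and no pair of libraries was a copy. Knockdown and control libraries of the same number did not deviate together (correlations -0.02, -0.19 and -0.09), so numbers were not taken as pairs.

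The genes, lists and tests were chosen with earlier results of these data known. Named were the 9 genes, TARDBP, the genes in ratios, up to 4 called genes of largest change per list, and the 3 nearest profiles of EZH1 and EZH2. A PRC1 subunit of the lists was left out of every count and is not reported here. Of the marker and target lists only counts, sums or single values are given. Family shares and the sums with SUZ12P1 and COMMD3-BMI1 were added after the values were seen. Alternatives were other pseudocounts (0.1 and 0.5), other minimum means (0.1, 5 or none), 4 scalings, a replicate block, limma without trend or with robust estimation, and each library left out. Positions of genes (1-based) come from GENCODE v29 for GRCh38, and start regions are from RefSeq on GRCh38.p14.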

Additional observations from a re-analysis of the deposited data

How the results depend on the processing

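KDM6B, CBX2 and EZH1 passed the threshold under all 18 alternatives, with the sign turned at equal sums, and EZH2 passed under 17 with 1 sign. With columns at equal sums 522 of all genes were higher and 11689 lower, 8 of the 8 tested Polycomb genes were called (0 higher, 8 lower), and 45 of 45 other Polycomb genes were called (0 higher, 45 lower). By limma 0 of either set were higher there at an unadjusted p under 0.05 too. Log2 fold changes there were -0.32 for EZH1, -0.89 for SUZ12, -1.03 for EED, -0.94 for BMI1, -0.40 for CBX2, -0.64 for CBX8 and -0.23 for KDM6B. With quantile normalization 0 of the 8 tested Polycomb genes were lower by limma, as at an unadjusted p under 0.05, while 8 of the 45 others were lower and 24 higher. There EZH2 stood at -0.11 (not called), SUZ12 at 0.11, BMI1 at 0.090 and CBX8 at 0.25 (called). With equal sums without the 6 small RNAs 2 of the 8 were lower, since EED passed at -0.24. With the replicate block 2 of the 8 were lower, since EED passed at -0.21, and 8561 genes were called in all, against 8909 without the block. The replicate numbers do not pair the libraries, and no library correlated best with the one of its own number. With single libraries left out, 4 to 6 of the 8 Polycomb genes were called, 3 to 4 higher and 1 to 2 lower. Over all genes 7983 to 9128 were called, and over the other Polycomb genes 24 to 27. SUZ12 ranged from -0.083 to 0.069, EED from -0.30 to -0.14, and CBX8 from 0.11 to 0.24. The sum of SUZ12 and SUZ12P1, chosen after seeing the data, differed by 0.25. The summed FPKM of a library was 2123050 to 2449948 in the knockdown and 1182985 to 1226728 in the control. Equal sums shifted the median over all genes by -0.80, or by -0.03 when the 6 small RNAs were left out of the sums. Why the column sums differ between the groups, and the causes of the other shifts, were not tested. The number of reads is unknown, and CBX7 lay under the minimum mean of 1 FPKM.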

Other observations

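Genes that EZH2 is reported to repress in neuroblastoma, and the INK4 locus that Polycomb silences in many cells, did not share a direction. NGFR, a neurotrophin receptor, had 16.5, 17.2 and 16.6 FPKM in the TDP-43 knockdown libraries, against 5.42, 6.17 and 6.20 FPKM in the control shRNA libraries (log2 fold change 1.36, limma adjusted p = 2.27e-07; 0.55 with columns at equal sums). CLU, a secreted chaperone, had 28.4, 30.8 and 26.8 FPKM in the knockdown, against 30.6, 29.7 and 31.7 FPKM in the control, and did not pass (limma adjusted p = 0.180). The other 4 were under the minimum mean of 1 FPKM and were not tested. CDKN2B, a cell cycle inhibitor of the INK4 locus, had 0.0946, 0.0315 and 0.0349 FPKM in the knockdown, against 1.32, 1.44 and 1.19 FPKM in the control. CDKN2A, its neighbour, had 0.764, 0.368 and 0.496 FPKM in the knockdown, against 0.806, 1.13 and 1.02 FPKM in the control. CASZ1, a transcription factor, had 0.464, 0.651 and 0.464 FPKM in the knockdown, against 0.888, 0.914 and 1.13 FPKM in the control. RUNX3, another, was listed at 0 in all 3 knockdown libraries, against 0.0295, 0.108 and 0.0176 FPKM in the control. In these 4 the knockdown values lay below the control values in every library, and NGFR lay above. Groups did not overlap for 70.8% of all genes tested either, so such a separation is common here. The 4 had means under 1 FPKM, and RUNX3 lay near 0 in both groups.

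The profiles nearest to EZH1 over the 6 libraries, by Euclidean distance between centred log2(FPKM + 1) values, were those of CROCCP3 (0.0401), ZSWIM8 (0.0423) and ELK1 (0.0494). CROCCP3 stood at 6.45 ± 0.549 FPKM in the knockdown and 4.38 ± 0.187 FPKM in the control (SD, n = 3 each). The profiles nearest to EZH2 were those of INAFM2 (0.0341), UCHL1 (0.0416) and MESDC2 (0.0549). UCHL1, an abundant neuronal ubiquitin hydrolase, stood at 225.9 ± 7.21 FPKM in the knockdown and 290.0 ± 2.62 FPKM in the control (SD, n = 3 each). The log2 fold changes were 0.47, 0.43 and 0.47 for the genes nearest to EZH1, and -0.34, -0.36 and -0.35 for those nearest to EZH2. With 2 groups, a small distance largely reflects a similar fold change, and shared regulation was not tested.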
